A study of Homo sapiens with 24 samples.

Results

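The 10 genes described here encode SR splicing factors, the serine/arginine-rich proteins SRSF1, SRSF2, SRSF3, SRSF4, SRSF5, SRSF6, SRSF7, SRSF9, SRSF10 and SRSF11. They were taken by symbol from a list, not by their values, and all 10 were found in both deposited tables, among 36741 genes of MPP+-treated and 63241 genes of untreated cells. The cells, labelled SH-SY5Y (a human neuroblastoma line), carried shMCART1 (a short hairpin RNA against MCART1), shScramble (a scrambled hairpin), oeMCART1 (an MCART1 overexpression construct) or oeNC (its control construct). MCART1 is an older symbol of SLC25A51, which carries NAD+ across the inner mitochondrial membrane. Each construct was sampled after 24 h in 0.5 mM MPP+, a toxin that inhibits respiratory complex I, and without it, with 3 libraries in each of the 8 groups. The labels give neither the promoters of the constructs nor whether the carriers were clones or pools. Separate cultures are not stated for replicates either, so p-values measure only the spread between these libraries.

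SR proteins bind enhancer sequences in exons through RNA recognition motifs and, through domains rich in arginine and serine, help the U1 snRNP and U2AF to choose splice sites. Kinases of the SRPK and CLK families phosphorylate these domains, and transportin-SR (TNPO3) imports the phosphorylated proteins into the nucleus. Many SR genes also carry a poison exon, whose inclusion sends the transcript to nonsense-mediated decay and so limits the level of the mRNA. SRSF1, SRSF4, SRSF5, SRSF6 and SRSF9 have a pair of RNA recognition motifs, while SRSF2, SRSF3, SRSF7, SRSF10 and SRSF11 have a single one.

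Levels are TPM, transcript abundance scaled per length to a fixed total in every library. TPM keep no read depth, so no counting interval can be given, and 13022 to 14306 genes reached 1 TPM per library. SLC25A51 checked the labels. With MPP+ it stood at 1007.5, 931 and 870 TPM in oeMCART1 cells, against 7.87, 8.15 and 9.44 TPM in oeNC cells, and at 5.12, 5.82 and 5.06 TPM in shMCART1 cells, against 6.87, 8.38 and 8.47 TPM in shScramble cells. Untreated, it averaged 683 ± 12.3 TPM in oeMCART1 and 31.6 ± 3.48 TPM in oeNC cells, and 7.28 ± 2.02 TPM in shMCART1 and 10.95 ± 0.382 TPM in shScramble cells (SD, n = 3 each). No group of a pair overlapped the other, and untreated oeNC cells stood above untreated shScramble cells.

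The labelled cell type did not match its defining markers. In untreated libraries PHOX2A reached at most 0.09 TPM and DBH at most 0.07 TPM, and TH, the enzyme that makes L-DOPA, was listed at 0 in untreated libraries and reached at most 0.04 TPM with MPP+. Of the marker list, 5 of 8 measured genes with MPP+ and 6 of 11 untreated genes reached 1 TPM in any library, among them GATA3, HAND2, ISL1, GAP43 and CHGA. CHGA, a protein of secretory granules named here after its values were seen, stayed at or below 4.73 TPM and moved with the SR genes under MPP+. Its log2 change was 1.00 with overexpression, -0.55 with knockdown and -0.58 in oeNC against shScramble cells (limma, adjusted p = 5.51e-05, 0.00859 and 0.00419). Other tested markers of the list differed from CHGA. With knockdown GAP43 was called higher (0.48; limma, adjusted p = 0.00711), and GATA3 (0.29), HAND2 (0.21) and ISL1 (-0.10) were not called. With overexpression ISL1 (0.01), GATA3 (0.05), GAP43 (-0.11) and HAND2 (-0.23) were not called. Between the controls with MPP+, 3 of 5 tested markers were called lower, where 42.8% of all genes were called lower and 5.13% higher. The summed level of these markers with MPP+ was 20.6 to 24.5 TPM in shMCART1 and 19.0 to 20.8 TPM in shScramble cells, and 16.6 to 17.4 TPM in oeMCART1 and 14.25 to 16.8 TPM in oeNC cells. The tissue is labelled bone marrow, and HEK293T, a human embryonic kidney line, appears in the growth protocol. Mesenchymal markers, led by VIM, summed with MPP+ to 637 to 684 TPM in shMCART1 and 552 to 583 TPM in shScramble cells, and to 433 to 478 TPM in oeMCART1 and 468 to 572 TPM in oeNC cells. Among them COL1A1, a collagen gene also named after its values were seen, had a log2 change of -1.73 with MPP+ and overexpression (limma, adjusted p = 1.97e-06). Blood cell markers summed to 9.43 to 15.7 TPM in oeMCART1 and 20.65 to 27.9 TPM in oeNC cells with MPP+. The part of these differences in the results below was not tested.

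The members lie on 7 chromosomes (GENCODE 29 on GRCh38), among them SRSF1 (ENSG00000136450, chr17:58003360-58007346, minus strand) and SRSF2 (ENSG00000161547, chr17:76734115-76737374, minus strand). SRSF6 (ENSG00000124193) lies at chr20:43457928-43464247 on the plus strand, SRSF3 (ENSG00000112081) at chr6:36594353-36605600 on the plus strand, and SRSF4 (ENSG00000116350) at chr1:29147743-29181987 on the minus strand. Some share exon sequence with a neighbour. SRSF1 shares 1890 exon bases with AC015813.2 on the same strand, which reached at most 9.35 TPM. SRSF2 shares 1106 exon bases with MFSD11 on the opposite strand (at most 16.4 TPM), and SRSF9 shares 1729 with GATC on the opposite strand (at most 41.4 TPM). Reads in these stretches may have been split between the genes, since the counting method is not given in the sources used here. Pseudogene copies took little signal, the highest being SRSF9P1 at 1.99 TPM.

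RefSeq promoter windows (GRCh38.p14, 250 bases before to 50 after the start) were matched for 9 of the 10 members, all but SRSF2, with 11 windows in all. Of 10 motifs searched, that of NRF1 is shown, chosen after the matches were seen as one found more often in members (3 of 9) than among all genes (6.98% of 27305 genes with a window). NRF1 is a transcription factor of genes for mitochondrial proteins. Its letters were GCGC, any base and TGCGC, searched on both strands and shown in capitals.
SRSF1: gcgcgtgcgtGCGCGTGCGCtgaacgtagc
SRSF10: cgacgctgagGCGCGTGCGCcagccctccg
SRSF9: gccggcctgcGCGCACGCGCaatggtcgca
These runs lie at chr17:58007360-58007389, chr1:23980475-23980504 and chr12:120469790-120469819, all on the minus strand, and SRSF9 holds the reverse complement. The TATA letters TATAAA were found in SRSF3, SRSF7 and SRSF11, against 14% of genes, and the CRE core TGACG in 5 members, against 28.4%. SP1 letters (GGGCGG) were found in 4 members, against 48.3% of genes, ETS letters (CCGGAAG) in 2, against 12.2%, and CCAAT in SRSF3, against 39.7%. The whole CRE (TGACGTCA), the E-box (CACGTG), ATGGCGGC and TGATGNAA were in none, against 2.25%, 8.77%, 3.67% and 4.46% of genes. A match describes these letters and is neither a bound site nor a cause.

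In MPP+-treated cells, 9 of the 10 SR genes were higher with MCART1 overexpression, of which SRSF9 took the other sign under median-of-ratios scaling and with the GC trend removed. With MCART1 knockdown 7 were lower and 1 higher, each in the same direction under these settings. Called means an adjusted p under 0.05 (limma on log2(TPM + 1), Benjamini-Hochberg over all genes tested). In overexpression, 46.7% of all 14895 genes were called higher and 14.2% lower. In knockdown, 10.8% of genes were called higher and 22.2% lower. Median-of-ratios scaling brought the all-gene median to -0.01 with overexpression, against 0.26 as deposited, and to 0.02 with knockdown, against -0.08. Under it, 3944 genes were called higher and 4338 lower with overexpression, and 8 members higher and 1 lower (SRSF4). It called 2609 genes higher and 2230 lower with knockdown, and the same number of members in each direction as before. As deposited, the median log2 change of the members was 1.04 with overexpression, beside 0.26 over all genes, and -0.60 with knockdown, beside -0.08. TPM are relative levels, and in bulk RNA fewer cells of a type and less RNA per cell cannot be told apart.

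**Figure D1:**
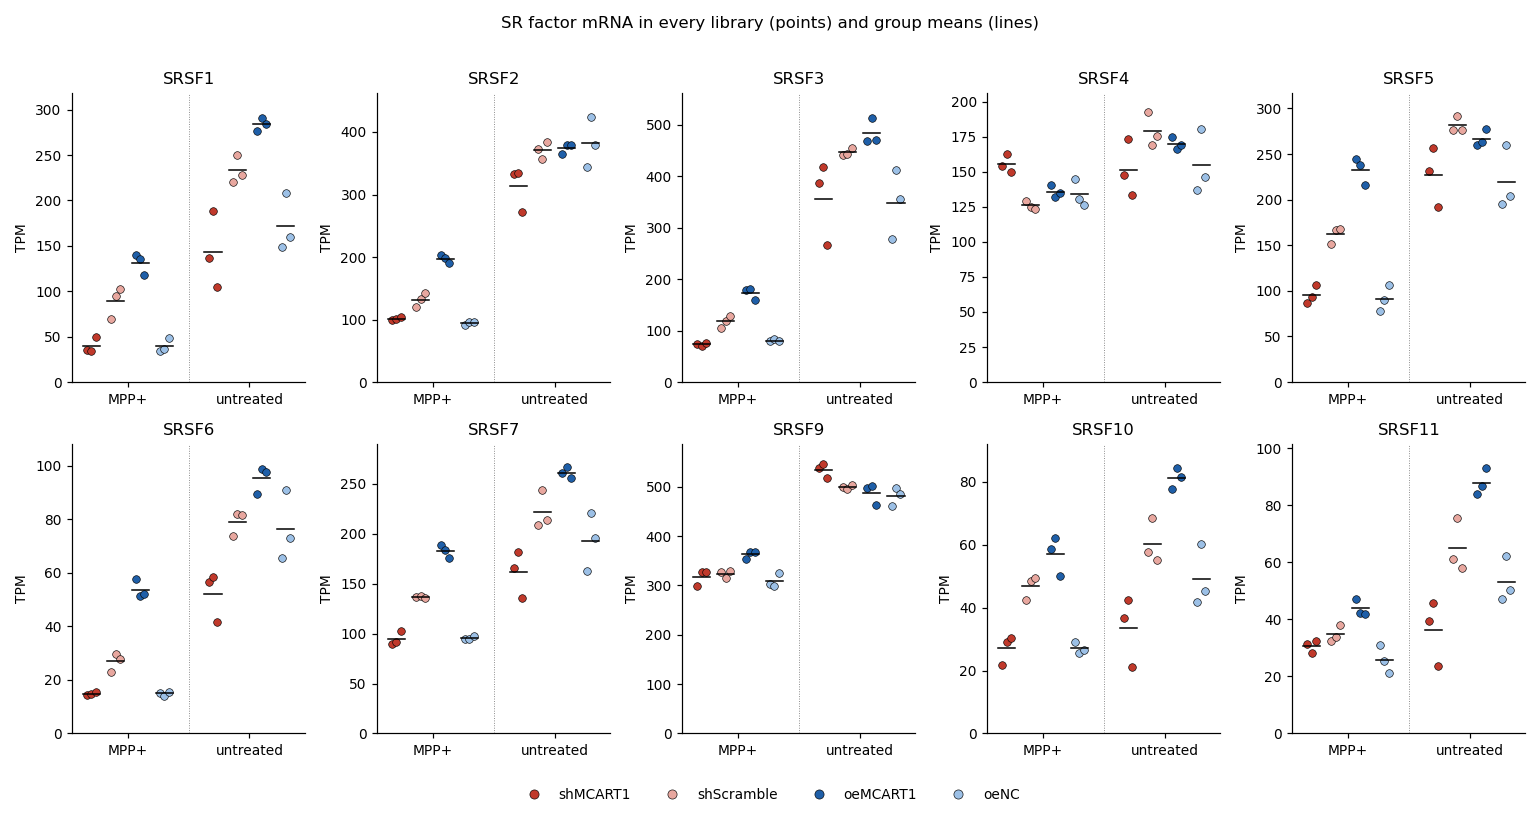
TPM of each SR gene (vertical axis, from 0) in every library, as points, with the group mean as a line, for MPP+-treated (left) and untreated cells (right). With MPP+, oeMCART1 cells lay above oeNC cells without overlap for 9 genes (as did 48.4% of all genes), and SRSF4 and SRSF9 varied least between groups.

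SRSF6, which regulates alternative exons and has a pair of RNA recognition motifs, changed most of the members with overexpression under MPP+. There it stood at 57.7, 51.5 and 52.0 TPM in oeMCART1 cells, against 15.3, 13.9 and 15.7 TPM in oeNC cells. Its level was 14.3, 14.6 and 15.6 TPM in shMCART1 cells, against 23.1, 29.8 and 27.9 TPM in shScramble cells. The groups of neither pair overlapped, and shMCART1 and oeNC cells, at 14.8 ± 0.682 and 14.9 ± 0.930 TPM (SD, n = 3 each), lay in the same range. The log2 change was 1.78 ± 0.089 (SE) with overexpression (limma, adjusted p = 1.85e-07), above that of 99.9% of genes. With knockdown it was -0.81 ± 0.089 (SE; limma, adjusted p = 0.000144).

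SRSF1, the founding member that acts in constitutive and alternative splicing and as an oncoprotein, fell the furthest of the members with knockdown under MPP+. It stood at 34.8, 34.8 and 49.5 TPM in shMCART1 cells with MPP+, against 69.0, 95.1 and 102 TPM in shScramble cells. In oeMCART1 cells it was at 140.0, 136 and 118 TPM, against 34.2, 36.5 and 49.0 TPM in oeNC cells. No library of one group reached the other in either pair. The log2 change was -1.14 ± 0.18 (SE) with knockdown (limma, adjusted p = 0.000796), where only 0.457% of genes had a lower change. With overexpression it was 1.71 ± 0.18 (SE; limma, adjusted p = 8.80e-06).

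SRSF5, a relative of SRSF4 and SRSF6, followed the same order. Its levels with MPP+ were 244, 238 and 216 TPM in oeMCART1 cells, against 77.6, 90.2 and 106 TPM in oeNC cells. They were 86.2, 93.5 and 106 TPM in shMCART1 cells, against 151, 167 and 167 TPM in shScramble cells. Neither pair overlapped. SRSF5 rose by a log2 change of 1.35 ± 0.10 (SE) with overexpression (limma, adjusted p = 1.64e-06) and fell with knockdown (-0.76 ± 0.10; adjusted p = 0.000429).

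SRSF4 did not follow SRSF5 and SRSF6. With MPP+ it stood at 154, 163 and 149.8 TPM in shMCART1 cells, against 129, 125 and 124 TPM in shScramble cells, and it was the 1 member higher with knockdown (log2 change 0.30 ± 0.054, SE; limma, adjusted p = 0.00182). It was at 141, 132 and 135 TPM in oeMCART1 cells, against 145, 130.5 and 126 TPM in oeNC cells. Those groups overlapped, with a log2 change of 0.02 ± 0.054 (SE; limma, adjusted p = 0.733). Under median-of-ratios scaling, quantile normalization and removal of the GC trend the last value was -0.30, -0.15 and -0.43, each called.

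SRSF9, close in sequence to SRSF1, was the most abundant member with MPP+ and moved little. It stood at 354, 369 and 367 TPM in oeMCART1 cells, against 304, 299.9 and 324 TPM in oeNC cells, a log2 change of 0.23 ± 0.044 (SE; limma, adjusted p = 0.000749). Those groups did not overlap, yet the value was -0.10 under median-of-ratios scaling and -0.11 with the GC trend removed, neither called. In shMCART1 cells it was at 299.6, 327 and 327 TPM, against 326, 316 and 329.9 TPM in shScramble cells, with overlap and a log2 change of -0.03 (limma, adjusted p = 0.670).

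Among the members with a single RNA recognition motif, SRSF2, a core protein of nuclear speckles, was at 204, 198 and 189.9 TPM in oeMCART1 cells with MPP+, against 91.9, 96.6 and 96.1 TPM in oeNC cells. It was at 98.6, 100.4 and 104 TPM in shMCART1 cells, against 119, 133 and 142 TPM in shScramble cells. Neither pair overlapped, and replicates of a group lay close together. The log2 changes were 1.05 ± 0.058 (SE) with overexpression (limma, adjusted p = 2.96e-07) and -0.37 ± 0.058 (SE) with knockdown (limma, adjusted p = 0.000864).

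SRSF3, which also takes part in mRNA export, was at 179, 182 and 160.4 TPM in oeMCART1 cells with MPP+, against 79.1, 83.2 and 79.5 TPM in oeNC cells. It was at 73.5, 70.9 and 75.9 TPM in shMCART1 cells, against 105, 119.6 and 129 TPM in shScramble cells. Again no libraries overlapped. The log2 changes were 1.10 ± 0.071 (SE; limma, adjusted p = 6.07e-07) with overexpression and -0.67 ± 0.071 (SE; limma, adjusted p = 0.000114) with knockdown.

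SRSF7, an export adaptor with a zinc knuckle, had 189, 184 and 176 TPM in oeMCART1 cells with MPP+, against 94.4, 94.9 and 97.1 TPM in oeNC cells. Its levels were 89.8, 91.4 and 103 TPM in shMCART1 cells, against 137, 138 and 135 TPM in shScramble cells. SRSF7 was thus higher with overexpression (log2 change 0.93 ± 0.051, SE; limma, adjusted p = 2.96e-07) and lower with knockdown (-0.53 ± 0.051; adjusted p = 7.56e-05), with no overlap.

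SRSF10, which turns into a splicing repressor when it loses its phosphates, averaged 56.9 ± 6.26 TPM in oeMCART1 and 27.1 ± 1.80 TPM in oeNC cells, and 27.1 ± 4.72 TPM in shMCART1 and 46.8 ± 3.89 TPM in shScramble cells, all with MPP+ (SD, n = 3 each). Both differences were called (log2 change 1.04 and -0.78; limma, adjusted p = 2.01e-05 and 0.000826) and neither pair overlapped. SRSF11, the least abundant member in shScramble cells after SRSF6, averaged 43.8 ± 2.93 TPM in oeMCART1 and 25.9 ± 4.96 TPM in oeNC cells (log2 change 0.75 ± 0.12, SE; limma, adjusted p = 0.00016). With the GC trend removed, that change was 0.09 and not called. SRSF11 averaged 30.6 ± 2.21 TPM in shMCART1 and 34.7 ± 2.92 TPM in shScramble cells and was not called (log2 change -0.18; limma, adjusted p = 0.270), though its libraries did not overlap.

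**Figure D2:**
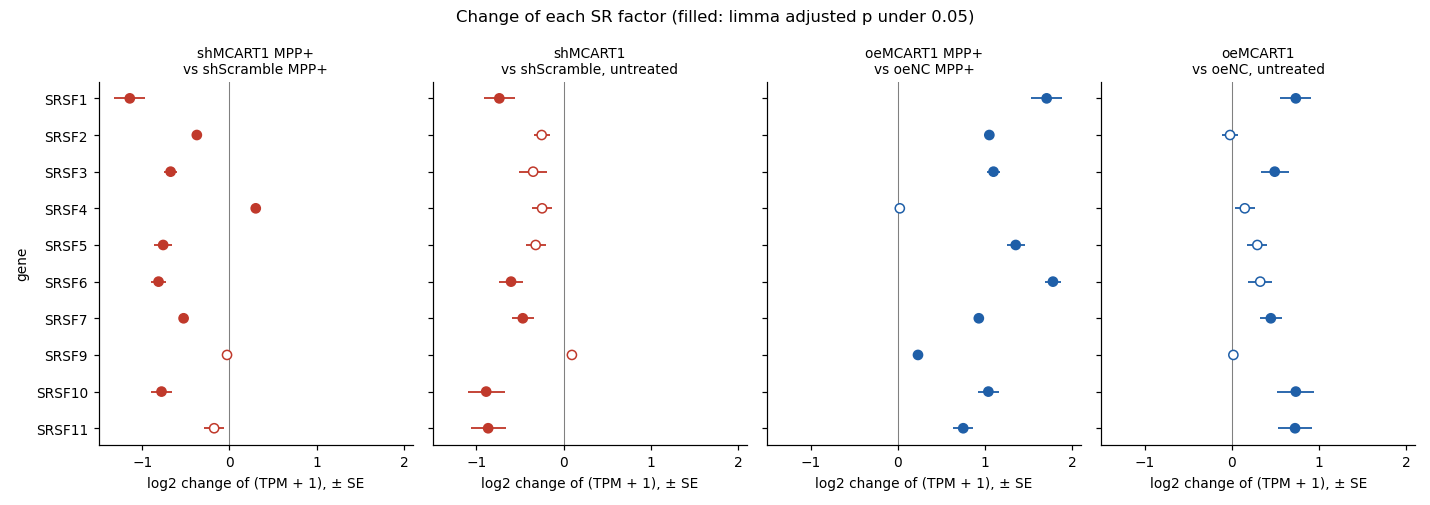
Log2 change of TPM + 1 with its SE (horizontal axis) for each gene in 4 comparisons, filled where called. With MPP+, 9 members were called higher in oeMCART1 cells (SRSF9 takes the other sign under median-of-ratios scaling) and 7 lower in shMCART1 cells, and untreated changes of 4 members with knockdown and 6 with overexpression change sign once the GC trend is removed.

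The control cells themselves differed with MPP+. In oeNC cells, 8 of 10 members were called lower than in shScramble cells, where 42.8% of all genes were called lower and 5.13% higher, and with the GC trend removed SRSF7 (0.0019) and SRSF11 (0.11) took the other sign. Median-of-ratios scaling, which brought the all-gene median to 0.01, left 7 members called lower and called 2 higher, with 3328 genes higher and 2471 lower. The change was largest for SRSF1 (-1.13 ± 0.18, SE; limma, adjusted p = 0.00041) and SRSF5 (-0.83 ± 0.10, SE; limma, adjusted p = 0.000145), and SRSF4 and SRSF9 were not called. The median log2 change of the members was -0.53, beside -0.25 over all genes. With the GC trend removed these medians were -0.12 and -0.01. Summed over the 10 members, TPM with MPP+ was 1571 ± 57.4 in oeMCART1 and 913 ± 24.8 in oeNC cells, and 950.3 ± 45.3 in shMCART1 and 1195 ± 55.7 in shScramble cells (SD, n = 3 each). The libraries of shMCART1 (904 to 994 TPM) and oeNC (897 to 942 TPM) overlapped, shScramble cells (1136 to 1246 TPM) lay above both, and oeMCART1 cells (1506 to 1613 TPM) lay above all. The overexpression change is measured against oeNC cells, the control with the lower SR levels.

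In untreated cells, 5 of 10 members were called in each construct comparison, and with the GC trend removed SRSF7 took the other sign in both and SRSF3 in overexpression. With knockdown SRSF1, SRSF6, SRSF7, SRSF10 and SRSF11 were lower, where 25.6% of 14703 genes were called lower and 8.64% higher. With overexpression SRSF1, SRSF3, SRSF7, SRSF10 and SRSF11 were higher, where 33.5% of genes were called higher and 14.7% lower. The median log2 change of the members was 0.38 with overexpression, beside 0.16 over all genes, and -0.41 with knockdown, beside -0.15. Median-of-ratios scaling brought the all-gene medians to -0.03 and 0.02 and called 4 members higher and 2 lower with overexpression (3827 genes higher and 3817 lower), and 1 higher and 5 lower with knockdown (2966 genes higher and 2955 lower).

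SRSF10 had the largest untreated changes, though those of SRSF11 and SRSF1 lay within its SE. It stood at 36.7, 42.4 and 21.1 TPM in shMCART1 cells, against 57.7, 68.5 and 55.1 TPM in shScramble cells (log2 change -0.89 ± 0.21, SE; limma, adjusted p = 0.0169). It stood at 77.8, 84.4 and 81.7 TPM in oeMCART1 cells, against 41.8, 60.1 and 45.5 TPM in oeNC cells (0.73 ± 0.21, SE; limma, adjusted p = 0.0165). Neither pair overlapped, and the third shMCART1 library was the lowest. With the GC trend removed the 2 values were -0.27 and 0.01, neither called.

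SRSF11, whose RS-rich protein binds U2AF, had 39.4, 45.6 and 23.7 TPM in shMCART1 cells, against 61.1, 75.6 and 58.1 TPM in shScramble cells. In oeMCART1 cells it had 83.8, 86.8 and 92.9 TPM, against 47.0, 62.0 and 50.4 TPM in oeNC cells. Neither pair overlapped. The log2 changes were -0.87 ± 0.20 and 0.72 ± 0.20 (SE; limma, adjusted p = 0.0157 and 0.0131), and with the GC trend removed they were -0.27 and 0.01, neither called.

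SRSF1 had 137, 189 and 104 TPM in untreated shMCART1 cells, against 220.2, 250.5 and 228 TPM in shScramble cells (log2 change -0.74 ± 0.18, SE; limma, adjusted p = 0.0169). It had 277, 290.4 and 284 TPM in oeMCART1 cells, against 149, 208 and 160.1 TPM in oeNC cells (0.73 ± 0.18, SE; limma, adjusted p = 0.00798). The groups did not overlap in either pair. SRSF1 was the only called member that stayed called in its direction with the GC trend removed, at -0.46 with knockdown and 0.39 with overexpression.

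SRSF6 and SRSF7 were lower with untreated knockdown. SRSF6 averaged 52.2 ± 9.18 TPM in shMCART1 and 79.1 ± 4.68 TPM in shScramble cells (log2 change -0.60; limma, adjusted p = 0.0157). SRSF7 averaged 161 ± 23.6 TPM in shMCART1 and 222 ± 18.9 TPM in shScramble cells (-0.47; limma, adjusted p = 0.0206). SRSF3 averaged 484 ± 24.9 TPM in oeMCART1 and 349 ± 67.5 TPM in oeNC cells (0.49; limma, adjusted p = 0.0272). With the GC trend removed, SRSF6 was at -0.08 and SRSF7 at 0.10 with knockdown, and SRSF3 at -0.20 with overexpression, none called.

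The members left uncalled without MPP+ were SRSF2, SRSF4, SRSF5 and SRSF9 in both pairs, SRSF3 with knockdown and SRSF6 with overexpression. SRSF2 averaged 375 ± 8.33 TPM in oeMCART1 and 382 ± 40.3 TPM in oeNC cells (log2 change -0.02 ± 0.092, SE; limma, adjusted p = 0.860), and these overlapped. SRSF9 averaged 534 ± 15.2 TPM in shMCART1 and 499.8 ± 3.85 TPM in shScramble cells (0.09; limma, adjusted p = 0.185). SRSF5 came close to the threshold in both pairs (-0.32 with knockdown and 0.29 with overexpression; limma, adjusted p = 0.051 and 0.057).

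These untreated changes rested on few libraries and moved with base composition. The third shMCART1 library held the lowest value of its group for 10 of 10 members, and the second oeNC library the highest of its group for 10 of 10. Without the second shScramble library 0 members were called with knockdown (the 5 had adjusted p = 0.0755 to 0.0900 by limma, and 7 at an unadjusted p under 0.05), and without the second shMCART1 library 9 were. Of all genes, 2 were called without that shScramble library. Without the second shMCART1 library 7247 of 14595 were called, against 5035 of 14703 with every library kept. Across all genes, which are not independent replicates, the untreated log2 change correlated with transcript GC content at Spearman rho = 0.788 with knockdown and -0.816 with overexpression. The members have a median transcript GC content of 43.6%, beside 49.5% for all genes tested. Deviations of single libraries from their group mean followed GC content too, at rho = 0.684 in the third shMCART1, -0.635 in the second shMCART1 and the second oeNC library and -0.63 in the second shScramble library.

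With each library's GC trend removed, 7 members were called with untreated overexpression, of which 1 was higher (SRSF1) and 6 lower (SRSF2, SRSF4, SRSF5, SRSF6, SRSF7 and SRSF9), and 2 with untreated knockdown, SRSF9 higher and SRSF1 lower. In these fits, 1071 of 14157 genes were called higher and 966 lower with untreated overexpression. With untreated knockdown, 437 were called higher and 669 lower. With MPP+ the correlation with GC content was weaker (rho = -0.61 with overexpression and 0.484 with knockdown). There, 7 members stayed called lower with knockdown after removal, at -1.03 for SRSF1, -0.56 for SRSF5, -0.55 for SRSF6 and -0.46 for SRSF10. Over all 13923 genes of that fit, 1853 were called higher and 2026 lower. With MPP+ and overexpression, 7 were called higher after removal, at 1.35 for SRSF1, 1.17 for SRSF6, 0.85 for SRSF5 and 0.84 for SRSF2. Over all genes, 3638 were called higher and 2974 lower. The member median with MPP+ and overexpression was 0.41 after removal, against 1.04 as deposited. With MPP+ and knockdown it was -0.35, against -0.60. How much of a GC trend is biological was not tested.

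**Figure D3:**
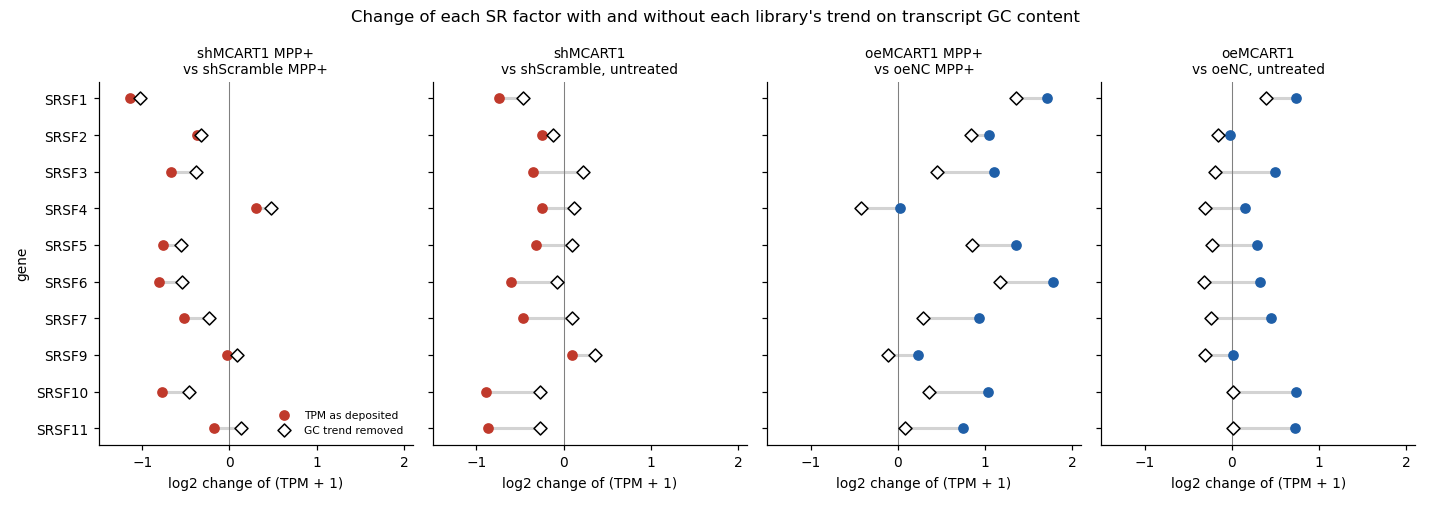
Log2 change of TPM + 1 (horizontal axis) of each gene from TPM as deposited (filled circles) and with the dependence on transcript GC content taken out per library (open diamonds). SRSF1 and SRSF2 kept their direction in all 4 comparisons, SRSF10 did so with an untreated overexpression change of 0.01 left of 0.73, and untreated changes of SRSF3, SRSF4, SRSF5 and SRSF7 changed sign in both pairs.

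The difference between the overexpression change with MPP+ and without it was tested over the genes in both tables, which were made separately. It was called for 7 members, all with the larger value under MPP+, where 14.1% of 13571 genes were called higher and 5.87% lower. Under quantile normalization 4 stayed called, and SRSF3, SRSF7 and SRSF9 did not (limma, adjusted p = 0.0721, 0.137 and 0.0670). It was 1.45 ± 0.17 (SE) for SRSF6 (limma, adjusted p = 9.54e-06), with changes of 1.78 under MPP+ and 0.32 untreated. SRSF2 differed by 1.07 ± 0.11 (SE; limma, adjusted p = 3.22e-06), with changes of 1.05 under MPP+ and -0.02 untreated. SRSF5 differed by 1.06 ± 0.16 (SE; limma, adjusted p = 0.000157) and SRSF1 by 0.97 ± 0.26 (SE; limma, adjusted p = 0.0121). For SRSF3, SRSF7 and SRSF9 the differences were 0.61, 0.48 and 0.22 (limma, adjusted p = 0.0246, 0.0164 and 0.0281). SRSF10 and SRSF11 were not called (0.31 ± 0.26 and 0.03 ± 0.24, SE; limma, adjusted p = 0.464 and 0.960). The control oeNC enters both changes, and 8 of the 10 members were called lower in it than in shScramble cells with MPP+, where 42.8% of all genes were called lower and 5.13% higher. The member median there was -0.53 as deposited and -0.12 with the GC trend removed. The SLC25A51 contrast differed as well, with oeMCART1 and oeNC cells at 936 and 8.49 TPM under MPP+ and 683 and 31.6 TPM untreated. Its log2 changes were 6.63 and 4.39, and the part of that in the SR differences was not tested.

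The knockdown change differed with MPP+ for SRSF4 alone, at 0.55 ± 0.13 (SE; limma, adjusted p = 0.0196), with changes of 0.30 under MPP+ and -0.25 untreated, where 2.02% of genes were called higher and 2.48% lower. SRSF11 differed by 0.69 ± 0.24 (SE; limma, adjusted p = 0.102) and SRSF5 by -0.44 ± 0.16 (SE; limma, adjusted p = 0.118), neither called. SRSF4 was not called in a fit of only the groups compared (limma, adjusted p = 0.0611) or without 1 of 3 libraries, the second shMCART1 or the third shScramble library with MPP+ or the third untreated shMCART1 library (0.0502 to 0.0520). With the GC trend removed, 6 members were called, 4 of them lower. That fit held 13151 genes, with 523 calls upward and 627 downward.

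In untreated control cells, oeNC against shScramble gave 0 called members by limma, with 3 at an unadjusted p under 0.05, where 0.197% of genes were called higher and 1.09% lower. The member changes ranged from -0.45 to 0.04, with a median of -0.25, beside -0.17 over all genes. The summed TPM of the 10 members in untreated cells was 2593 ± 51.1 in oeMCART1 and 2131 ± 270.1 in oeNC cells, and 2008 ± 275 in shMCART1 and 2438 ± 36.2 in shScramble cells (SD, n = 3 each). The range of oeNC cells (1880.03 to 2417 TPM) overlapped both that of shMCART1 (1707 to 2245 TPM) and that of shScramble cells (2405 to 2477 TPM), and oeMCART1 cells (2555 to 2651 TPM) lay above all.

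Levels with MPP+ and untreated were set side by side only, since the tables hold different sets of genes, and TPM depend on that set. The mean level with MPP+ was a median of 50.4% of the untreated level over the members in shMCART1, 55.5% in shScramble, 63.1% in oeMCART1 and 45.2% in oeNC cells. Over all genes at 5 TPM or more in both, the medians were 93.3%, 88.8%, 91.5% and 86.4% in the same order. SRSF3 had 73.4 TPM with MPP+ and 357 TPM untreated in shMCART1 cells, 20.6% of the untreated level, and it stood at 26.5% in shScramble, 35.9% in oeMCART1 and 23.1% in oeNC cells. SRSF6 stood at 28.4%, 34.0%, 56.4% and 19.5% of the untreated level in the same order. SRSF4 was at 102.6% in shMCART1 cells, the only member above its untreated level, and at 70.3% to 86.6% in the other constructs. No test was made of these ratios.

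**Figure D4:**
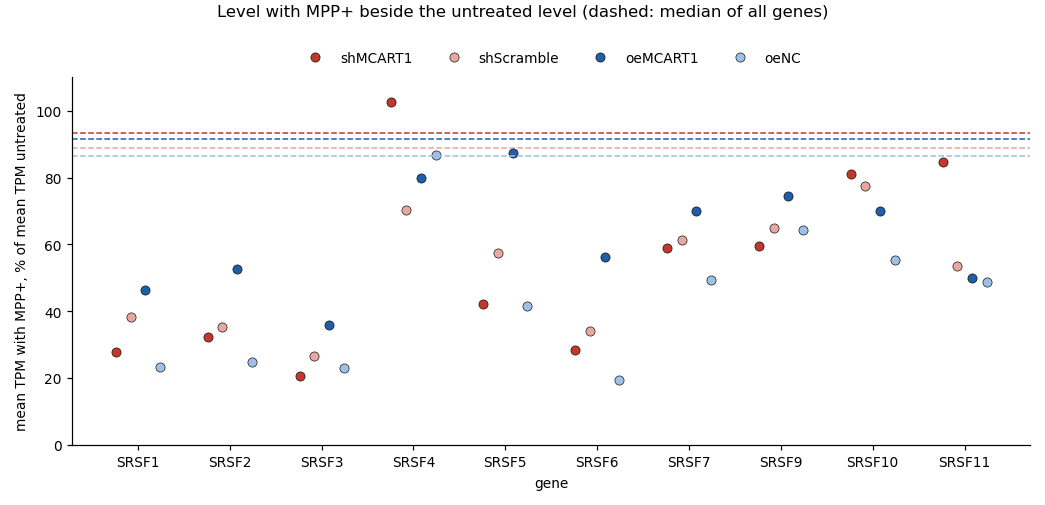
Mean TPM with MPP+ as a percentage of mean TPM untreated (vertical axis) for each gene and construct, with the median over all genes as a dashed line. Members lay between 19.5% and 102.6%, most of them below the all-gene medians of 86.4% to 93.3%, and the values carry no test.

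Genes of the wider splicing machinery were counted in the same fits. Over all genes, 46.7% were called higher and 14.2% lower with MPP+ and overexpression (median log2 change 0.26), and 10.8% higher and 22.2% lower with MPP+ and knockdown (median -0.08). Of 17 SR-related regulators, 13 were called higher and 0 lower with MPP+ and overexpression, at a median log2 change of 0.55, and 1 higher and 5 lower with knockdown, at -0.19. TRA2B, TRA2A and RBM39, splicing activators with RS-like domains, had the smallest p-values in both, with log2 changes of 1.39, 1.30 and 1.06 with overexpression and -0.83, -0.64 and -0.48 with knockdown. Untreated, 11 of 17 were called higher and 2 lower with overexpression, and 11 lower and 0 higher with knockdown, led by BCLAF1 (1.25 and -1.02). Over all genes the untreated shares were 33.5% higher and 14.7% lower with overexpression, and 25.6% lower and 8.64% higher with knockdown.

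The kinases and the importer of SR proteins moved both ways. With MPP+ and overexpression, 6 of 9 tested were called higher and 2 lower (46.7% and 14.2% of all genes), with SRPK1 at 0.91, TNPO3 at 0.54 and CLK2 at -0.63. With knockdown, CLK3 (0.56) and CLK2 (0.16) were higher and SRPK1 (-0.42) lower, and 6 of 9 were not called (10.8% of all genes were called higher and 22.2% lower). Untreated, 6 of 9 were called higher and 1 lower with overexpression (33.5% and 14.7% of all genes), and 1 higher and 5 lower with knockdown (8.64% and 25.6%). SRPK1 had log2 changes of 1.02 with overexpression and -0.86 with knockdown, PRPF4B 0.94 and -0.82, and SRPK2 0.58 and -0.57, all called by limma. CLK3 ran the other way, at -0.32 with overexpression and 0.28 with knockdown (limma, adjusted p = 0.0143 and 0.0374).

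Set against the all-gene shares with MPP+ (46.7% higher and 14.2% lower with overexpression, 10.8% higher and 22.2% lower with knockdown), 3 further lists were counted. Of 23 hnRNPs, which often oppose SR proteins at exons, 17 were called higher and 1 lower with MPP+ and overexpression (median 0.54), and 2 higher and 11 lower with knockdown (median -0.20). HNRNPH3 led both, at 1.31 and -0.84. Splice site recognition factors were split: with MPP+ and overexpression 7 of 13 were called higher, near the all-gene share, and 5 lower, with SNRNP70 at -0.64 and SF3A2 at -0.73, and with knockdown 4 were called higher and 4 lower, with SNRNP70 at 0.52 and SF3A2 at 0.41. SNRNP70, a protein of the U1 snRNP, thus ran opposite to SRSF1 in both, while other genes of the list ran in the direction of SRSF1. Of 15 nonsense-mediated decay and exon junction genes, 13 were called higher and 0 lower with overexpression and 7 lower and 0 higher with knockdown, with MAGOHB at 1.29 and -0.87, RBM8A at 0.64 and -0.50, and MAGOH at 0.74 and -0.49. The member medians with MPP+ (1.04 and -0.60) were larger in size than those of each of these lists, a description with no test. Untreated, the member medians (0.38 and -0.41) were smaller than those of the SR-related regulators (0.61 and -0.43) and of the kinases and importer (0.58 and -0.59). With untreated overexpression the hnRNP median (0.43) was larger too. With the GC trend removed the member medians with MPP+ were 0.41 and -0.35, and the lists were not counted in that setting.

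Within the family, profiles were compared by the root mean square difference of table-centred log2 group means over the 8 groups. The closest members were SRSF3 and SRSF5 (0.101) and SRSF3 and SRSF7 (0.106), and SRSF4 and SRSF1 were far apart (0.609). SRSF4 lay nearest to SRSF9 (0.142) and SRSF6 nearest to SRSF1 (0.16). The search covered 8198 genes with a mean of 5 TPM or more in both tables, the members included. Of the non-members, the nearest to SRSF1 was SLC30A6 (0.0876), to SRSF6 PIGW (0.0953), to SRSF3 BEX4 (0.0629) and to SRSF5 GCC1 (0.0668). The nearest to SRSF2 was DYNLL1 (0.0599), to SRSF4 TRAF3 (0.0351), to SRSF7 H3-3A (0.0319), to SRSF9 KLHDC4 (0.0249), to SRSF10 GTF2H2C (0.0313) and to SRSF11 ATP6V1C1 (0.0385). Members with small changes have small distances to many genes, so these values are not comparable between members.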

How the data were processed

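Polyadenylated RNA was measured in 24 libraries, and the deposited values are TPM, made by the authors in 1 table for untreated and 1 for treated cells. Neither aligner nor annotation is given in the sources used here; the submitters' processing notes name GRCh38, GRCm38 and mm10 without roles. Entries without a gene identifier (25 untreated, 42 treated), none of which held a value, were left out. The tables share 31524 identifiers (85.8% of the treated table), so MPP+ was not tested against untreated cells. Depth is unknown.

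Per table, genes reaching 1 TPM in 3 or more libraries were tested as log2(TPM + 1) with limma 3.58.1 in R 4.3.3 (trended empirical Bayes, all 4 groups of a table; 24 libraries for differences of changes), with Benjamini-Hochberg adjustment over all genes and a threshold of 0.05. The fit was tested on simulated data. GC content came from GENCODE 29 transcripts, and its trend in each library was removed with a natural spline of 5 degrees of freedom. Alternatives were GC removal, median-of-ratios scaling, quantile normalization, a replicate block, fits restricted to the compared groups, a pseudocount of 0.1, no filter or one of 5 TPM, and each library left out. Python 3.11.15 with numpy 2.4.6, pandas 2.3.3 and matplotlib 3.10.9 made tables and plots.

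Some marker genes are not reported here. The members, lists and alternatives were chosen with earlier results of these data known. Named genes are all 10 members, SLC25A51, the nearest gene to each member (mean of 5 TPM or more), and up to 3 called genes with the smallest adjusted p per other splicing list and comparison.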

Additional observations from a re-analysis of the deposited data

Results flagged for a closer look

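The overexpression change differed between MPP+-treated and untreated cells, by a test of the difference itself, for 7 SR genes: the log2 differences (with minus without MPP+) were 1.45 for SRSF6, 1.07 for SRSF2, 1.06 for SRSF5, 0.97 for SRSF1, 0.61 for SRSF3, 0.48 for SRSF7 and 0.22 for SRSF9 (limma, adjusted p = 3.22e-06 to 0.0281). Under quantile normalization 4 of the 7 stayed called. The knockdown change differed for SRSF4, by 0.55 (limma, adjusted p = 0.0196), and was not called in a fit of only those groups (0.0611) or without 1 of 3 libraries (the second shMCART1 or the third shScramble library with MPP+, or the third untreated shMCART1 library; 0.0502 to 0.0520). The 2 tables were made separately, and the part of that in these differences was not tested. SLC25A51 itself changed by a log2 of 6.63 with overexpression under MPP+ and 4.39 untreated, and the part of that was not tested either.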

How the results depend on the processing

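Of 43 member values called over the comparisons, 43 stayed called with a pseudocount of 0.1, a filter of 5 TPM or a replicate block, 36 without a filter, 37 under quantile normalization or in a fit restricted to the groups compared, and 39 under median-of-ratios scaling (3 lost their call and 1 reversed). Removing the GC trend left 28 called, while 9 lost their call and 6 reversed. With MPP+, the members called (8 with knockdown, 9 with overexpression, 8 between controls) stayed within 1.5 times in number under every alternative run. That number adds calls in both directions, so it does not show that the same members stayed called in the same direction. With the GC trend removed, SRSF4 was called lower with overexpression (-0.43), and SRSF7 (0.0019) and SRSF11 (0.11) took the other sign between controls. TPM keep no depth, GC content was known for 93.5% to 96.9% of genes, and 3 libraries a group limit the precision. For each change given here, the cause was not tested.

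Untreated knockdown, with 5 members called, gave 1 without a filter, 2 with the GC trend removed and 0 in a fit restricted to its own groups (by limma, 0 of all genes too, with 5799 at an unadjusted p under 0.05). Leaving out a library gave 0 to 9 (0 without the second shScramble, 3 without the third shMCART1 and 9 without the second shMCART1 library). Untreated overexpression, with 5, gave 3 without a filter and 1 to 7 with a library left out (1 without the first oeNC library, 3 without the third oeNC or the second oeMCART1 library). Untreated controls, with 0, gave 2 with the GC trend removed and 0 to 1 with a library left out (1 without the second oeNC library). The difference of knockdown changes, with 1, gave 2 under median-of-ratios scaling, 6 with the GC trend removed, 0 in a fit restricted to its own groups, and 0 to 2 with a library left out (2 without the second untreated shMCART1 library). The difference of overexpression changes, with 7, gave 4 under quantile normalization.

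Replicate numbers were not taken as pairs, since correlations of same-numbered deviations were -0.0729 to 0.211. The replicate block called 1 member between untreated controls, 7 with untreated knockdown and 7 with untreated overexpression. With the GC trend removed as well, it called 2 between untreated controls and 7 for the difference of knockdown changes. Over all genes the block alone called 1936 between untreated controls, against 189 without it, and 1108 for the difference of knockdown changes, against 610. It called 6323 of 14703 genes with untreated knockdown, against 5035, and 7658 with untreated overexpression, against 7082. With the GC trend removed as well, 1272 genes were called between untreated controls and 1337 for the difference of knockdown changes. No member called without the block was lost under it.

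The following log2 changes took the other sign. With the GC trend removed, with or without the replicate block, untreated knockdown gave 0.22 for SRSF3, 0.12 for SRSF4, 0.10 for SRSF5 and 0.096 for SRSF7. Untreated overexpression gave -0.20 for SRSF3, -0.31 for SRSF4, -0.23 for SRSF5, -0.32 for SRSF6, -0.24 for SRSF7 and -0.31 for SRSF9. Knockdown with MPP+ gave 0.084 for SRSF9 and 0.13 for SRSF11, and overexpression with MPP+ gave -0.43 for SRSF4 and -0.11 for SRSF9. Controls with MPP+ gave 0.0019 for SRSF7, 0.27 for SRSF9 and 0.11 for SRSF11, and the difference of knockdown changes gave -0.19 for SRSF10. Median-of-ratios scaling gave -0.079 for SRSF4 and -0.21 for SRSF9 with untreated overexpression, and -0.30 for SRSF4 and -0.097 for SRSF9 with overexpression under MPP+. It gave 0.083 for SRSF9 with knockdown under MPP+, 0.26 for SRSF9 between controls with MPP+, and -0.069 for SRSF11 in the difference of overexpression changes. Quantile normalization gave -0.099 for SRSF9 with untreated overexpression, -0.15 for SRSF4 with overexpression under MPP+ and -0.17 for SRSF11 in the difference of overexpression changes. With a library left out, only uncalled values changed sign. SRSF2 ranged from -0.097 to 0.054 and SRSF9 from -0.015 to 0.052 with untreated overexpression, SRSF9 from -0.049 to 0.015 with knockdown under MPP+, and SRSF4 from -0.018 to 0.081 with overexpression under MPP+. In the difference of knockdown changes SRSF7 ranged from -0.18 to 0.035 and SRSF10 from -0.18 to 0.31, and in that of overexpression changes SRSF11 ranged from -0.11 to 0.16.

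Counts over all genes also moved. Untreated knockdown, at 5035, gave 1272 without a filter and 1106 with the GC trend removed (1662 with the block). It gave 2 and 3203 without the second and the first shScramble library, and 971, 2253 and 7247 without the third, the first and the second shMCART1 library. Untreated overexpression, at 7082, gave 2037 with the GC trend removed (2472 with the block) and 4005 without the first oeNC library. Untreated controls, at 189, gave 60 without a filter, 1056 with the GC trend removed (1272 with the block), 45 in a fit restricted to their own groups, and 6 to 2250 with a library left out (2250 without the second oeNC library). Controls with MPP+, at 7134, gave 3210 with the GC trend removed (3120 with the block). The difference of knockdown changes, at 610, gave 1150 with the GC trend removed (1337 with the block), 119 in a fit restricted to its own groups, and 257 to 2559 with a library left out (2559 without the second untreated shMCART1 library).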
